A study of Mus musculus with 7 samples.

Results

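The oligoadenylate synthetase (OAS) genes were followed through 7 single-colour BeadArrays of mouse megakaryocyte-erythroid progenitors, the bone marrow cells that give rise to platelets and red blood cells. The members were all probes that the array annotation assigns to Oas1a, Oas1g, Oas2, Oas3, Oasl1 and Oasl2, which made 13 of the 25697 probes and 6 of the 16593 named genes of the array. The double knockout group held 3 arrays of cells from female C57BL/6 mice in which Ssb1 (also called Nabp2) and Ssb2 (Nabp1) had been knocked out, genes whose products bind single-stranded DNA, and the control group held 4 arrays of the same population from wild-type females of that strain. Cells had been sorted as lineage-low, c-Kit+, Sca-1-, CD34low and CD16/32low. The labels used here state neither how the genes were deleted nor the age of the animals. The labels do not say whether each array came from a separate animal, so p-values measure the spread between these samples, which may be technical.

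OAS proteins are sensors of double-stranded RNA that are switched on by interferon. The active synthetases of the family join ATP into short oligoadenylates, a second messenger that leads to the cutting of viral and cellular RNA. Mice carry a row of Oas1 copies beside Oas2 and Oas3, and a separate pair, Oasl1 and Oasl2, whose proteins end in ubiquitin-like domains.

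Every one of the 6 genes had at least 1 probe that was higher in the double knockout. Of the 13 probes, 10 were tested because they rose above background (detection p under 0.05 against the array's negative controls) on at least 3 arrays, and all 10 tested probes were higher in the knockout and 0 lower at an adjusted p under 0.05 by limma. Over the whole array, 26.3% of the 10723 tested probes changed, 13.5% being higher and 12.8% lower. All 3 knockout arrays lay above all 4 control arrays for the same 10 probes, which held for 19.3% of tested probes. The median change of the tested members was 1.72 on the log2 scale, against 0.00196 for all tested probes. Of these 10 probes, 5 were above background on all 7 arrays, 1 on 1 control array and 4 on no control array. Those 5 dimmer probes entered the test through the knockout arrays and so had to differ between groups. They include the only tested probe of Oas1a, of Oas2 and of Oas3. The p-values given below for these 5 probes share that limit. Neither the counts of 10, the count of 6 genes nor the median change is support by itself.

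In terms of detection, each control array showed 5 or 6 of the 13 probes above background, while the knockout arrays showed 11, 10 and 10. Of all probes on the array, 36.6% to 40.3% were above background on the control arrays and 42.7%, 41.2% and 43.4% on knockout arrays 1, 2 and 3. Relative to the control mean, the tested members averaged 2.15, 2.01 and 1.96 on the log2 scale on knockout arrays 1, 2 and 3, and between -0.0571 and 0.0619 on the control arrays. These averages include the 4 tested probes above background on no control array, whose control values are readings of background. They leave out the probes too dim to be tested, so their size is a description and not support. The knockout arrays thus stood close together for the average of the tested members. No knockout array led throughout: array 1 was the highest of its group for 4 probes, array 2 for 4 and array 3 for 2.

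**Figure D1:**
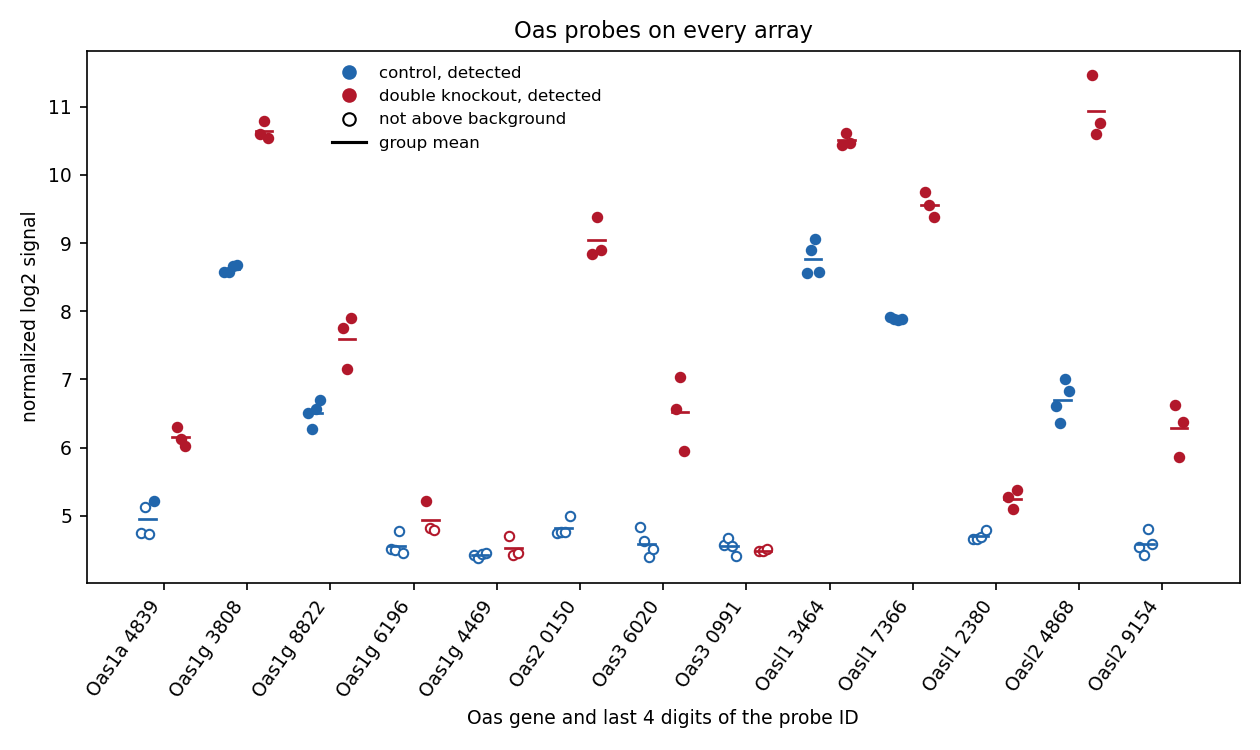
Normalized log2 signal (vertical axis) of the 13 Oas probes (horizontal axis) on each of 4 control and 3 double knockout arrays, with open circles for values not above background and bars for group means. The groups are apart for all 10 tested probes, and both groups lie at background for ILMN_2624469 of Oas1g and ILMN_2650991 of Oas3.

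Some facts of the arrays apply to all values below. The mean signal of an array was 660 ± 9.60 (SD, n = 3) in the knockout and 515 ± 75.2 (SD, n = 4) in controls, and the difference had p = 0.0571 in an exact permutation test, two-sided, for which 3 against 4 arrays can give no less than 0.0286. With array brightness in the model as a covariate, 52 of 10723 probes were called, and 5 of the 10 Oas probes were among them. Every knockout array (651 to 670) was brighter than every control array (443 to 615), so this covariate cannot tell brightness and group fully apart. Nabp2 was lower in the knockout by both of its probes (log2 -2.04, SE 0.189, limma adjusted p = 0.000274, and log2 -0.95, SE 0.188, adjusted p = 0.00790), and no array detected the Nabp1 probe. Of 6 measured progenitor markers all were above background on every array, among them the erythroid transcription factors Gata1 and Klf1 and the erythropoietin receptor Epor. By their brightest probes 1 was higher and 0 lower, Itga2b by 1.99 (adjusted p = 0.00160). Over all tested probes 13.5% were higher and 12.8% lower. The brighter Gata1 probe and Klf1 differed by -0.48 and -0.32 (adjusted p = 0.0573 and 0.0613), with every knockout array below every control array in normalized values. Before normalization their mean signals were 431 and 8933 in the knockout and 372 and 8519 in controls. The dimmer Gata1 probe differed by -0.29 (adjusted p = 0.315), with groups that overlapped. The number of arrays, 7, limits the precision.

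Oas1a and Oas1g encode enzymatically active synthetases and lie next to each other on chromosome 5. Their copies are similar in sequence, and which transcripts each probe binds was not tested. The Oas1a probe (ILMN_2924839) had signals of 222.9, 190.9 and 199.8 on the knockout arrays and 130.7, 131, 123.2 and 158.6 on control arrays 1 to 4. Only control array 4 was above background, so most control values are readings of background. The normalized level was 6.15 ± 0.138 (SD, n = 3) against 4.95 ± 0.256 (SD, n = 4), and the difference of 1.20 (SE 0.162, adjusted p = 0.00179) corresponds to 1.84-fold once each value is lifted to the lowest detected value of its array. Its control values cover a wide range for so dim a probe, with arrays 2 and 4 at 5.13 and 5.21 and arrays 1 and 3 at 4.74 and 4.72. The groups nevertheless did not overlap.

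For Oas1g, the 4 probes did not give a single answer. The brightest (ILMN_1253808) read 2082.3, 2269.4 and 1958.2 in the knockout and 381.7, 366.8, 358.1 and 569.1 in controls. It was above background on all 7 arrays and rose 4.06-fold (log2 2.02, SE 0.119, adjusted p = 3.83e-05), with normalized control values between 8.57 and 8.68. Its standard error was the smallest among the tested members. A dimmer probe (ILMN_2628822), also above background throughout, read 411.6, 278.7 and 430.9 against 177.5, 159, 167.4 and 231.3. It rose 2.13-fold (log2 1.09, SE 0.192, adjusted p = 0.00505), with knockout array 2 below the other knockout arrays but above each control. Of the remaining pair, ILMN_2816196 was above background on knockout array 1 alone, at a signal of 160.9, and ILMN_2624469 on no array. In a fit without the filter on dim probes these differed by 0.38 (adjusted p = 0.130) and 0.11 (adjusted p = 0.597).

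Promoters are shown because the members moved together and interferon is known to act through the interferon-stimulated response element. RefSeq windows of build GRCm38.p6, from 250 bases before to 50 after the annotated start, were matched for Oas1a, Oas1g, Oas3, Oasl1 and Oasl2 and searched on both strands for its core, GAAA followed by any 2 bases and GAAA again. The 120 bases before the start, read 5′ to 3′ on the gene's strand with matches to the core in capitals, were as follows.
Oas1a, chr5:120907526-120907645, minus strand: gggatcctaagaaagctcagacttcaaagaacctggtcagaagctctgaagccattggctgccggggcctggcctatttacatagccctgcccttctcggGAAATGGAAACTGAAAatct
Oas1g, chr5:120887614-120887733, minus strand: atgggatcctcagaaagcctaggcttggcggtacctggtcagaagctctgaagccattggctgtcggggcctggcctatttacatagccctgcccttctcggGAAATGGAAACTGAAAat
Oas3, chr5:120777660-120777779, minus strand: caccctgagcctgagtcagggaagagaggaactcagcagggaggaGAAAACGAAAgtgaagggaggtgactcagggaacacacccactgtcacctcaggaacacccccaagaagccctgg

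In Oas1a and Oas1g the capitals are 2 overlapping matches, which begin 20 and 14 bases before the start in Oas1a and 18 and 12 bases before it in Oas1g. The single match of Oas3 begins 75 bases before its start. The windows of Oasl1 and Oasl2 held no match, and 3.44% of the 32851 windows in the RefSeq table held at least 1. Of the other Oas1 genes, the window of Oas1c held 2 overlapping matches in the opposite orientation, beginning 114 and 108 bases before its start, and those of Oas1f and Oas1h held none. Another motif, the gamma-activated site TTCNNNGAA, was matched once, in Oas1a, beginning 98 bases before the start, and occurred in 8.3% of all windows. The full windows of Oas1a and Oas1g were identical at 85.3% of aligned positions, whereas the other pairs of members lay between 35.1% and 42.8%. A match describes letters in these windows and not binding.

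Oas2 encodes a larger synthetase built from a pair of OAS units. Its only probe (ILMN_2670150) read 734.8, 937.1 and 737.2 in the knockout and 130.8, 123, 124.2 and 151.9 in controls. No control array was above background, with detection p-values of 0.0777 to 0.211, and all knockout arrays were. The normalized level was 9.04 ± 0.298 (SD, n = 3) in the knockout and 4.81 ± 0.123 (SD, n = 4) in controls, where it is only a bound. The knockout mean exceeded the control detection floor at least 13.8-fold (adjusted p = 1.99e-06 with values raised to the floor, and 3.63e-06 without). That floor averages, over the control arrays, the lowest value of any detected probe or the Oas2 value where this was higher.

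Oas3, a synthetase with several OAS units, was measured by 2 probes that differed. ILMN_1216020 read 244.7, 263.6 and 195.5 in the knockout and 133, 119.3, 109.1 and 132.3 in controls, with no control array above background. The knockout lay at least 2.40-fold above the control floor (adjusted p = 0.00329 with values raised to the floor, and 0.00113 without). For this probe the knockout arrays were spread the most among tested members, at 6.57, 7.03 and 5.95 on the normalized log2 scale. All the same, the lowest knockout value lay above the highest control value of 4.83. The other probe, ILMN_2650991, was above background on no array and differed by -0.07 (adjusted p = 0.751) in the fit without the filter. Oas3 is thus called on the strength of 1 of its probes.

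Oasl1 lacks synthetase activity and in the mouse is known to restrain translation of Irf7, a transcription factor that drives interferon production. Its probe ILMN_2793464 read 1890.3, 2012.9 and 1871.9 in the knockout and 378.9, 433.6, 434.5 and 538 in controls, and rose 3.33-fold (log2 1.73, SE 0.153, adjusted p = 0.000223). Another probe, ILMN_2717366, read 1236.5, 1046.3 and 979.7 against 281.5, 268.1, 252.1 and 374.5, and rose 3.19-fold (log2 1.67, SE 0.125, adjusted p = 8.32e-05). These probes, above background on every array, gave almost the same change, and their 95% intervals were 1.39 to 2.08 and 1.39 to 1.95. The dimmest, ILMN_2722380, was detected on no control array and read 163.5, 147.6 and 165.7 in the knockout. Its log2 change of 0.55 (SE 0.121, adjusted p = 0.0118) is carried by values under the detection floor: with values raised to that floor the difference was -0.0021 (adjusted p = 0.991), so no bound above 1 can be given. The call was also lost without knockout array 3 (adjusted p = 0.0571) and without background correction (adjusted p = 0.113).

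Oasl2, which in the mouse combines synthetase activity with ubiquitin-like domains, was measured by 2 probes of unequal brightness. Probe ILMN_2954868 read 3567.5, 2000.9 and 2221.5 in the knockout and 182.5, 162.1, 187 and 241.2 in controls, above background on all 7 arrays. It rose 19.0-fold (log2 4.25, 95% interval 3.73 to 4.76, adjusted p = 3.50e-05). Knockout array 1 was the highest, at 11.5 on the normalized log2 scale against 10.6 and 10.8, and each knockout array was far above the control maximum of 7.01. A dimmer probe, ILMN_2599154, read 249.8, 177.2 and 224.3 against 123.9, 110.4, 125.3 and 135.6. No control array detected it, and knockout array 1 was again the highest. The knockout exceeded the control floor at least 2.04-fold (adjusted p = 0.00326 with values raised to the floor, and 0.000731 without).

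**Figure D2:**
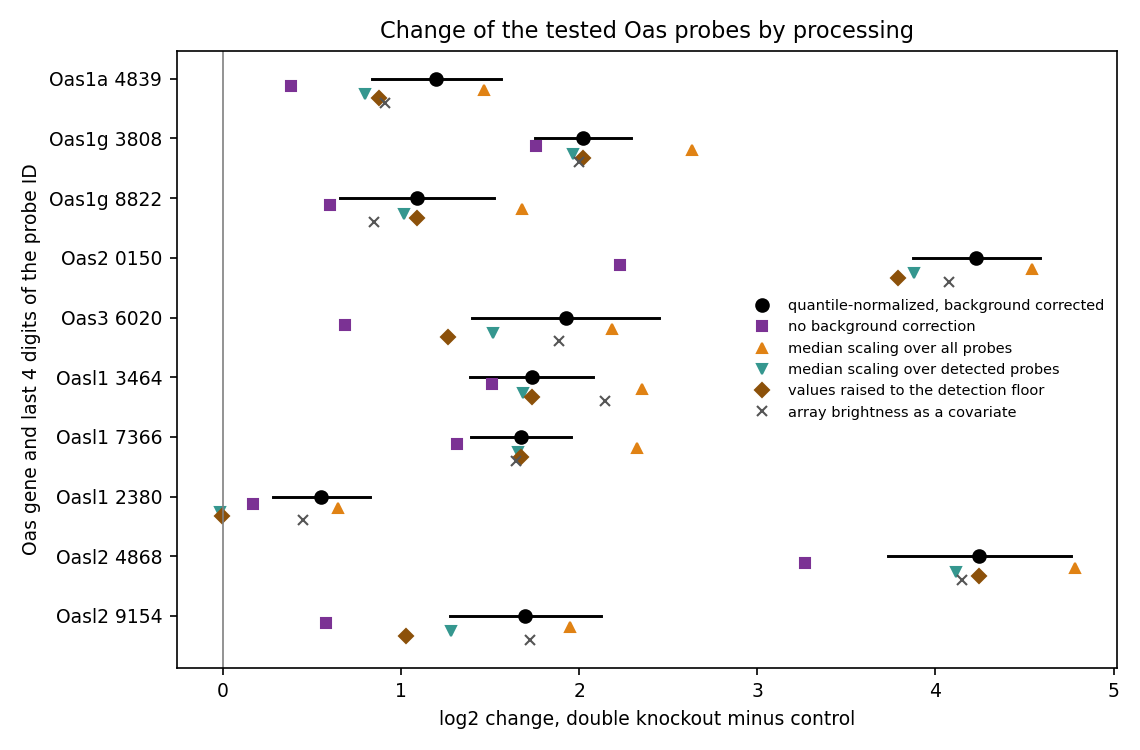
Log2 change between double knockout and control (horizontal axis) of the 10 tested Oas probes (vertical axis), with black points and 95% intervals for the quantile-normalized values and coloured marks for other processing. The changes of Oas2 and of the brighter Oasl2 probe stay above 2 in each setting drawn, while the dim Oasl1 probe falls to -0.0178 and -0.0021.

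For dim probes the size of a rise depended on the treatment of background. Over the 10 probes, the log2 change came to a median of 0.538 of the value given above without background correction and 0.493 in the authors' processed table. Among dim probes, Oas3 (ILMN_1216020) changed by 0.69 and Oas1a by 0.38 without the correction (adjusted p = 0.00109 and 0.00493), and Oas2 by 2.07 in the processed table. In that table the bright probes read 1.70 for Oas1g (ILMN_1253808) and 3.10 for Oasl2 (ILMN_2954868). Adding array brightness as a covariate left Oas2 at 4.07 (adjusted p = 0.00162), Oasl2 at 4.15 (adjusted p = 0.00874), Oas1g at 2.002 (adjusted p = 0.0108) and the brighter Oasl1 probes at 2.15 and 1.64 (adjusted p = 0.00944 and 0.0293). The same covariate ended the calls of the other 5 probes, at adjusted p from 0.115 to 0.419, with changes of 0.45 to 1.89 in the same direction. With it the median SE of the 10 probes went from 0.160 to 0.286. Whether brightness accounts for the lost calls was not tested.

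**Figure D3:**
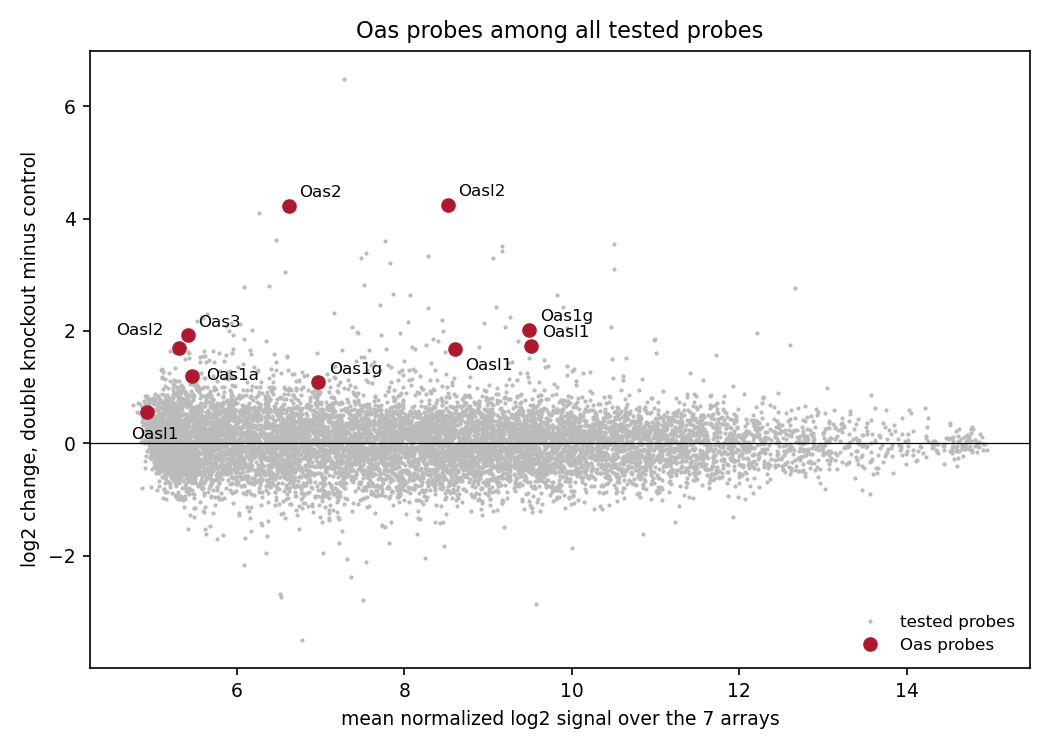
Log2 change between double knockout and control (vertical axis) against the mean normalized log2 signal over 7 arrays (horizontal axis) for the 10723 tested probes in grey and the 10 Oas probes in red. The brighter Oasl2 probe lies at 4.25 and Oas2, whose control values are below background, at 4.23, and the lowest Oas point is the dim Oasl1 probe at 0.55.

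The other 6 Oas1 genes on the array behaved differently from each other. Oas1b, known for flavivirus resistance in wild mice and listed as a transcribed pseudogene in the gene table of this strain, had 2 tested probes, both above background on no control array. Its probe ILMN_2823462 read 190, 185.5 and 182.7 in the knockout and 125.6, 118.4, 113 and 134.4 in controls. It was at least 1.52-fold higher (adjusted p = 0.00836 with values raised to the floor, and 0.000300 without). The other Oas1b probe, ILMN_2613140, passed on values under the detection floor (log2 0.65, adjusted p = 0.0159) and lost its call with values raised to that floor (log2 0.18, adjusted p = 0.328). Oas1c differed by 0.30 (SE 0.204, adjusted p = 0.299) and the brighter Oas1d probe by 0.01 (SE 0.139, adjusted p = 0.956), with groups that overlapped. Oas1e, Oas1f and Oas1h, and the dimmer Oas1d probe, were above background on no array.

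Position on the chromosome was examined next. The nearest 3 protein-coding genes with a probe on each side of the Oasl pair and of the Oas row, 12 in all, were taken by their order in the gene table. Among them 7 had a tested probe, 1 was higher and 1 lower by its brightest tested probe, beside 13.5% higher and 12.8% lower over all tested probes. Ptpn11, a phosphatase gene beyond the Oas1d end of the row, was higher by 0.45 (SE 0.118, adjusted p = 0.0224), while 2 other tested probes of it did not pass. Acads, an acyl-CoA dehydrogenase gene beyond Oasl1, was lower, at -0.87 (SE 0.130, adjusted p = 0.00273). Closer to the row, Rph3a and Rasal1 were above background on no array and Dtx1 on 1 control array, while Ddx54 differed by 0.15 (adjusted p = 0.439). On either side of the Oasl pair, 4930519G04Rik was at background on every array, and 2210016L21Rik differed by -0.52 (adjusted p = 0.0510), with its dimmer probe lower by -0.66 (adjusted p = 0.0281). Git2, 2610524H06Rik and Sppl3 did not pass, at -0.05, -0.46 and -0.15 (adjusted p = 0.845, 0.149 and 0.465), and Rpl6 was at background.

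**Figure D4:**
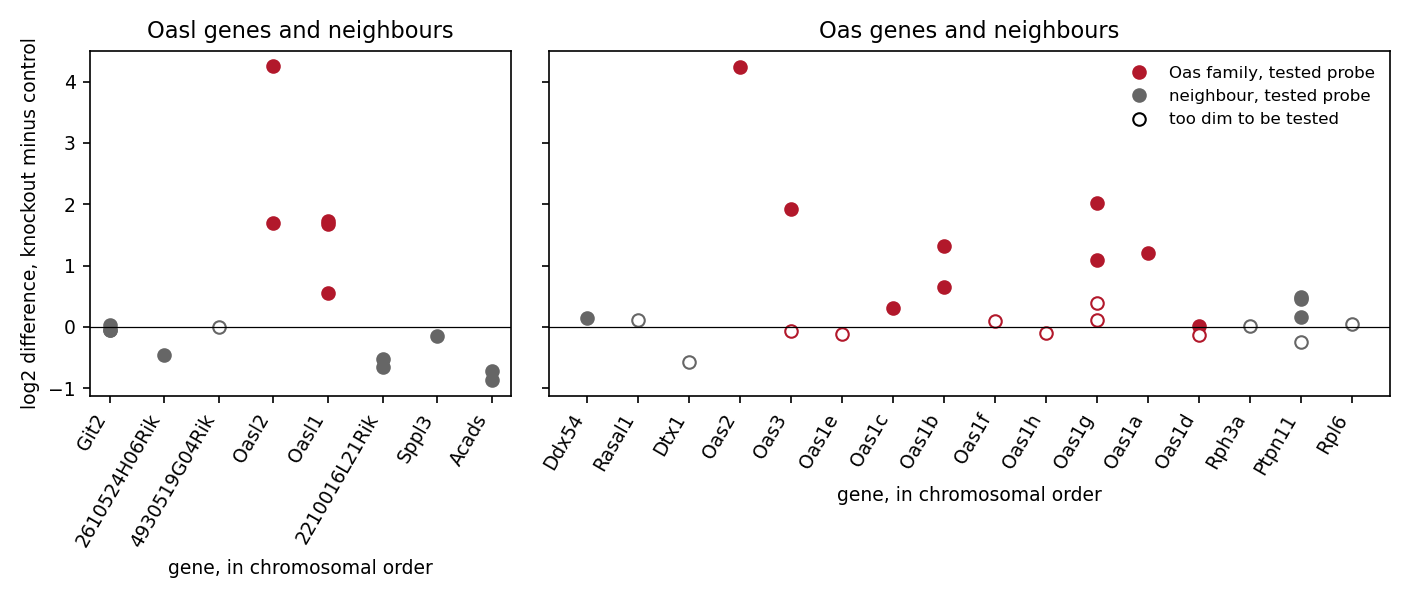
Log2 difference between double knockout and control (vertical axis) for every probe of the Oas genes and their neighbours in chromosomal order (horizontal axis), with open circles for probes too dim to be tested. Values above 1 are seen at Oasl2, Oasl1, Oas2, Oas3, Oas1b, Oas1g and Oas1a, and the neighbours lie between -0.87 and 0.49.

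No measured gene acting after the synthetases passed as higher. Of 3 genes of the oligoadenylate pathway with a probe, 0 were higher and 1 was lower, where 13.5% of all tested probes were higher and 12.8% lower. Akap7, which includes a phosphodiesterase that degrades oligoadenylates, averaged 6.88 in the knockout and 7.57 in controls after normalization. This is a log2 change of -0.70 (SE 0.160, adjusted p = 0.0140). Its signals before normalization overlapped, at 273.8, 250.9 and 271.1 in the knockout and 270.2, 226.4, 243 and 282.4 in controls. The lower call of Akap7 thus holds for normalized values only. Pde12, another enzyme that degrades them, differed by 0.17 (SE 0.127, adjusted p = 0.343), and Abce1, which recycles ribosomes and was listed with the pathway as one of its inhibitors, by 0.0027 (SE 0.176, adjusted p = 0.992). The median of the 3 genes was 0.0027.

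Upstream of the family, receptor and factor genes divided. Of 6 tested genes of the interferon receptor and of ISGF3, the factor that binds the response element, 3 were higher and 0 lower, where 13.5% of all tested probes were higher, with a median change of 0.45 against 0.00196 for all tested probes. Irf7 rose 5.32-fold (log2 2.41, SE 0.211, adjusted p = 0.000208), Irf9 by 0.79 (SE 0.195, adjusted p = 0.0183) and Stat2, above background on 2 of 4 control arrays, by 1.60 (SE 0.336, adjusted p = 0.0101). A dimmer Irf9 probe differed by 0.27 (adjusted p = 0.391). The kinase Tyk2, the receptor chain Ifnar2 and Jak1 did not pass, at -0.22, 0.10 and -0.06 (adjusted p = 0.229, 0.606 and 0.809), and Ifnar1 was above background on no array.

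A list of sensors of foreign nucleic acid also held the RNA-editing enzyme Adar and the adaptor Mavs. In it 4 of 6 tested genes were higher and 0 lower, with a median of 1.12, where 13.5% of all tested probes were higher. Dhx58, a relative of the RNA sensor RIG-I, rose 4.60-fold (log2 2.20, SE 0.172, adjusted p = 0.000108). The RNA-editing enzyme Adar rose by 1.33 (SE 0.170, adjusted p = 0.00151), the RNA-activated kinase Eif2ak2 by 1.17 (SE 0.156, adjusted p = 0.00171) and the RNA sensor Ifih1, above background on 1 of 4 control arrays, by 1.06 (SE 0.191, adjusted p = 0.00561). Cgas, which makes a cyclic dinucleotide and is related in fold to the OAS proteins, differed by 0.37 (adjusted p = 0.299), and the adaptor Mavs by -0.17 (adjusted p = 0.357).

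The genes whose pattern was nearest to the family were found by the Euclidean distance between each probe's values over the 7 arrays, less its control mean, and the mean profile of the 10 tested Oas probes. Among 10077 named probes outside the family, the nearest were Samd9l (distance 0.395 on the log2 scale), Ifi47 (0.401), Trafd1 (0.416), Trim30a (0.429) and Uba7 (0.481). Their log2 changes were 1.86, 2.06, 2.003, 2.14 and 1.84. These probes were chosen for this profile, so the changes are a description.

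Markers of other cells that a sort could hold were read beside these values. In RNA from many cells, a change in the number of cells of a type and a change in RNA per cell cannot be told apart. Beside the counts that follow, 13.5% of all tested probes were higher and 12.8% lower. None of 4 tested macrophage markers passed, with sums of raw signals, before normalization and so moving with array brightness, over the 5 measured markers of 844 to 1334 in the knockout and 791 to 955 in controls, and the defining marker Adgre1 was above background on no knockout array. Of 3 tested markers of plasmacytoid dendritic cells, which are known to make interferon, 0 passed by their brightest probe: Siglech differed by -0.49 (adjusted p = 0.158) and Ccr9 and Klk1 were above background on no array. The brightest Ly6d probe differed by -0.98 (adjusted p = 0.0963), and its other probe was lower, at -0.83 (adjusted p = 0.0327). These Ly6d probes were above background on 3 control arrays each and on 1 and 0 knockout arrays. Both thus entered the test through the controls, and their changes are a description. The median change of the 3 tested genes was -0.49. The raw sums of the 6 listed markers were 2407 to 2525 in the knockout and 1466 to 2357 in controls, most of it from Tcf4, which averaged 1758 and 1195 and differed by -0.01 after normalization (adjusted p = 0.944). B cell markers fell, with Cd79a, Cd79b and Vpreb3 lower among 3 tested. Cd79a and Vpreb3 were above background on all 4 control arrays but on only 0 and 1 knockout arrays. They entered the test through the controls, so this count is not support by itself. Sums over 5 B cell markers were 730 to 793 against 934 to 1268, while Pax5 and Ms4a1 were at background. Of 4 tested neutrophil markers S100a8 was higher by 1.45 (adjusted p = 0.0313), while S100a9, Elane and Camp did not pass, at 0.99, 0.50 and -0.49 (adjusted p = 0.245, 0.220 and 0.424), with sums over 6 markers of 2249 to 3770 against 894 to 1529 and Ngp at background. T and NK cell markers did not pass in any of 2 tested, with Cd3e, Cd3g, Cd2 and Ncr1 at background and sums over 6 markers of 1265 to 1866 against 850 to 1185. Probes at background add to these raw sums. Within them Nkg7 averaged 823 in the knockout and 377 in controls, and differed by 0.65 after normalization (adjusted p = 0.239). The part of these cells in the Oas values was not tested.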

How the data were processed

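Cells from 7 samples were measured on MouseRef-8 v2.0 BeadArrays in a single colour, per the labels. The authors deposited probe signals, which are linear intensity values before any background subtraction, each with a detection p-value from GenomeStudio, per the file headers and the submitters' processing notes. A processed table on a log2 scale was also deposited and served as an alternative. Its values followed quantile-normalized log2 signals (median correlation per probe 0.999964) with column medians of 0.00164 to 0.00513, and the baseline on which its probes are centred remains unknown.

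Signals were corrected and normalized with neqc of limma 3.58.1 in R 4.3.3 (background from detection p-values, offset 16, quantile normalization, log2). Probes with detection p under 0.05 on at least 3 arrays were kept, 10723 of 25697, and compared with lmFit and eBayes, two-sided. P-values were adjusted by Benjamini-Hochberg across the kept probes, with calls made under 0.05. Adjusted p-values are from this limma fit unless an alternative is named. Gene lists were represented by each gene's brightest kept probe. Of all probes, 23978 had 1 gene symbol and 1719 none. Promoter windows were aligned with Biopython 1.88. In simulated data for this comparison, 200 of 10723 probes were changed in 10 runs, of which 16% shifted by 0.5, 88.2% by 1 and 100% by 2 on the log2 scale were recovered, with 4.32% false calls.

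The members, the gene lists and the rule for named genes (all Oas probes, the targeted genes, up to 4 genes per list with the smallest p, the 5 nearest profiles, and the 3 neighbours on each side) were chosen with earlier results of these data known, and the values of Ifnar2, Jak1, Cgas, Mavs, the dimmer Irf9 probe and single marker genes were added after they were seen. Some members of the gene lists are not reported here. Same-numbered samples were checked for pairing: their deviations from the group means correlated at -0.143, -0.00861 and -0.00789, so the numbers were not used to pair samples.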

Additional observations from a re-analysis of the deposited data

Results flagged for a closer look

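In controls, Oas2 read 4.997 on the normalized log2 scale on array 4, against 4.74 to 4.76 on the other control arrays, a gap that takes 0.931 of the group's range and so exceeds Dixon's limit for 4 values. It was the 1 such case among 41 probes examined, and chance alone gives about 1 in 20. The value lay below background, and control array 4 was the brightest control array, at a mean signal of 615.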

How the results depend on the processing

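The 10 Oas probes were refitted 190 times over the alternatives, of which 178 kept direction and call. Outside the brightness covariate, the 9 probes other than the dim Oasl1 probe lost no call in 164 refits (highest adjusted p 0.0263). That probe (ILMN_2722380) lost its call in 8 of 17 refits and turned to -0.0178 under median scaling over detected probes and to -0.0021 with values raised to the detection floor, an alternative chosen after seeing the data. The cause of its other losses was not tested. The count of Oas probes called was 5 with detection required on all arrays, where only 5 were tested, 6 with 1 probe per gene, where 6 were tested, 5 with array brightness as a covariate, and 9 to 10 leaving out 1 array. Over the whole array, 2820 probes were called, 51.4% of them higher. Median scaling over all probes called 5143 (96.9% higher) and moved the median change to 0.50, median scaling over detected probes gave 28.5% higher and a median of -0.17, and brightness as a covariate called 52 (84.6% higher). Leaving out 1 array called 1477 to 2624, the lowest values being 1477 without knockout array 3 and 1517 without knockout array 1. With the replicate block 1685 probes were called and all 10 Oas probes kept their call, and 0 of 6 samples correlated best with the sample of their own number. Signal over background limits Oas1a, Oas2, Oas3 and the dim Oasl probes in controls.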
